A study of Homo sapiens with 15 samples.

Results

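The response of SW480 cells without a hairpin to 4 h of lipopolysaccharide (LPS) was taken from 6 RNA-seq libraries, the 3 labelled LPS and the 3 labelled control, out of 12 libraries of 4 groups that could be mapped to the labels. Genes entered the comparison with at least 0.5 FPKM (fragments mapped to a transcript, scaled by its length and by the library's mapped total) in at least 3 of these 6 libraries, which left 15997 of the 57905 genes listed. SW480 is a human colorectal adenocarcinoma line grown in serum-containing medium, and the labels call it intestinal epithelial. LPS libraries come from cells exposed to LPS at 1 µg/ml for 4 h, and control libraries from cells that received no LPS (PBS in the treatment protocol, no treatment in the sample labels). The other 2 groups, used here only beside this response, carry a lentiviral short hairpin directed at the long non-coding RNA PINT, with LPS and without it. No control with a non-targeting hairpin is among the groups analysed, and the labels do not say whether the 3 libraries of a group are separate cultures, and a p-value therefore speaks only of how these libraries scatter.

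LPS, a glycolipid of the outer membrane of Gram-negative bacteria, is bound by LBP and CD14, handed to TLR4 and its partner MD-2 (gene LY96), and signals through the adaptor MYD88 and the IRAK kinases. The signal reaches the IkB kinase complex, which marks the inhibitory IkB proteins for destruction and so frees NF-kB dimers to enter the nucleus. NF-kB then induces chemokines, cytokines, adhesion molecules and survival genes, and also its own inhibitors, which limit the response. The gut epithelium faces bacteria all the time and is known for restrained TLR4 signalling, while many colorectal cancer lines answer LPS to differing degrees.

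Total reads are unknown for FPKM values. The most frequent ratio among low values gave depths, relative to 1 for the first control library, of 0.848 to 0.858 in LPS libraries and 0.809 to 1 in control libraries, and 27078 to 27425 genes were above 0 in LPS libraries, against 27536 to 28430 in control libraries. These depths rest on a ratio that 0.447% to 0.849% of the low genes shared. Every LPS library had fewer genes above 0 than any control library, and the part of this in the results was not tested. Pearson correlations of log2 values across genes were 0.9818 to 0.9845 within a group and 0.9803 to 0.9823 between the groups, and the first principal component (27.2% of the variance) separated LPS from control libraries. The epithelial identity was measurable: KRT18, a keratin of simple epithelia, was at 870 to 874 FPKM in LPS libraries and 833 to 871 FPKM in control libraries, and EPCAM at 198 to 205 FPKM and 203 to 207 FPKM. Of 9 simple epithelial markers 7 were tested and none was called, where 0.806% of all genes tested were, and KRT20 and CDX1 were below the filter. Of 12 leukocyte markers only LYZ and CD68 passed the filter, neither called, and PTPRC, the pan-leukocyte marker, was listed at 0 in 5 of 6 libraries. Of 12 fibroblast and endothelial markers 11 were listed, and only COL1A1 (0.63 to 1.03 FPKM in LPS libraries and 0.433 to 0.569 FPKM in control libraries) passed it.

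The target of the hairpin was not moved by LPS to a measurable extent. LINC-PINT had 2.4, 2.82 and 1.91 FPKM in LPS libraries, against 2.88, 2.56 and 2.51 FPKM in control libraries, and the groups overlapped (-0.14 ± 0.14 log2; two-sided exact permutation test, p = 0.4, where 0.1 is the smallest p that 3 against 3 libraries allow). In the hairpin libraries LINC-PINT is higher, not lower, which goes against their label, so they are called the libraries labelled PINT shRNA1 and no direction is drawn from them about the loss of PINT.

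Few genes were called between LPS and control libraries, and most of these were higher in LPS libraries. Limma, applied to log2(FPKM + 0.5) with Benjamini-Hochberg adjustment over all 15997 genes, called 129 genes at an adjusted p under 0.05, which is 0.806% of those tested. Of these 108 were higher in LPS libraries (0.675% of genes tested) and 21 lower (0.131%). A rise of at least 1 on the log2 scale was seen in 27 of the 108 and a fall of at least 1 in 2 of the 21, YTHDF2 and the clone-based AC011933.1. In all 129 the 3 LPS libraries lay on one side of the 3 control libraries, which was also so for 3161 genes, or 19.8% of all tested. The median change of all genes tested was -0.04. Another 58 genes changed by at least 1 without a call, and their median standard error (SE) was 0.452, against 0.0721 for called genes and 0.118 for all genes. In 32 of these 58 the groups do not overlap. With the spread estimated over all 12 libraries, 486 genes were called, 277 of them higher, and these included 121 of the 129. Changes are log2 fold changes ± SE, LPS minus control, and understate the change of low genes because of the added 0.5.

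**Figure D1:**
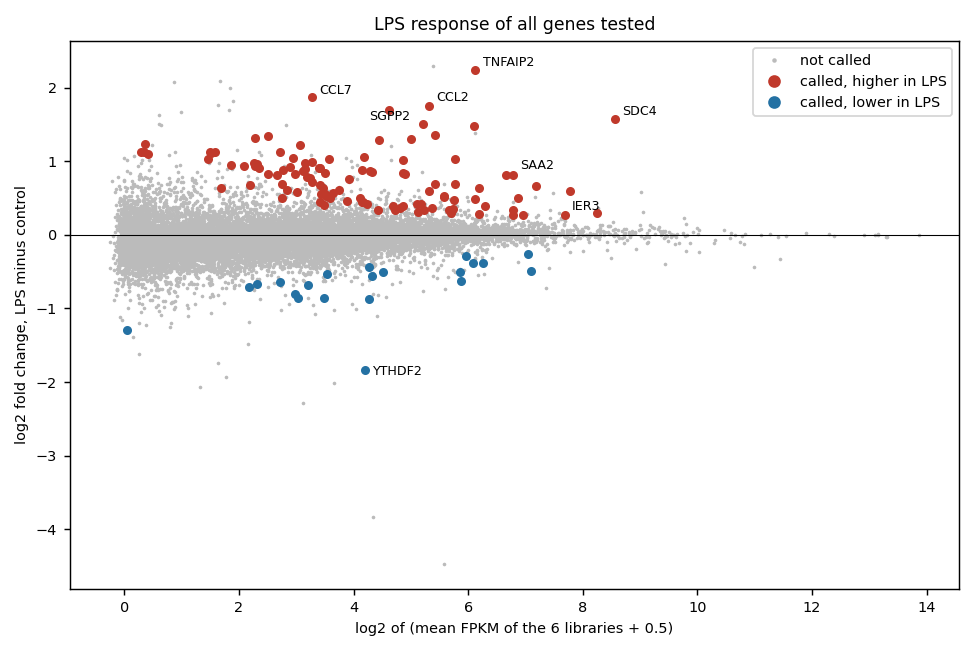
Log2 fold change (LPS minus control) of all 15997 genes tested against the log2 of their mean FPKM plus 0.5 over the 6 libraries. The 108 genes called higher (red) reach to 2.24 for TNFAIP2 and include the abundant SDC4, the 21 called lower (blue) reach to -1.83 for YTHDF2, and grey points further out are uncalled genes, of which 58 changed by at least 1.

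The number of calls rests on having all 6 libraries. With 1 library left out, 47, 53 and 50 genes were called without LPS replicate 1, 2 or 3, and 59, 64 and 74 without control replicate 1, 2 or 3. In every one of these fits all 129 genes kept their direction. The call held in each of the 6 fits for 37 genes, 33 of them higher and 4 lower, and in none of them for 51 genes. The 33 include CCL2, CCL7, CCL20, CXCL1, IL8, SDC4, SGPP2, ICAM1, BIRC3, LTB, ICOSLG, NFKB1, NFKB2, RELB, TNIP1, CD83, SAA2 and CLDN1, and the 4 are YTHDF2, KIAA1199, MSX1 and PRELID1. For genes named below whose call did not hold throughout, the number of these 6 fits in which it ended is given.

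The largest rises were led by TNFAIP2, a TNF-induced gene of endothelial and epithelial cells. It had 135, 73.3 and 138 FPKM in LPS libraries and 27.4, 22.7 and 19.8 FPKM in control libraries (2.24 ± 0.25; limma, adjusted p = 0.0162). LPS replicate 2 was well below the other LPS libraries but above every control library, and the call ended in 5 of the 6 fits with 1 library left out, with changes of 2.08 to 2.54. SDC4 and SGPP2 rose more evenly. SDC4, a heparan sulfate proteoglycan of the cell surface, had 566, 570 and 559 FPKM in LPS libraries and 193, 187 and 188 FPKM in control libraries (1.58 ± 0.03; limma, adjusted p = 7.35e-06, the smallest of all genes). SGPP2, which removes the phosphate of sphingosine 1-phosphate, had 54.3, 54.4 and 54.3 FPKM in LPS libraries, against 18.7, 18.8 and 18.7 FPKM in control libraries (1.51 ± 0.04; limma, adjusted p = 4.3e-05). In both genes the libraries of a group lie close together and the groups are far apart.

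**Figure D2:**
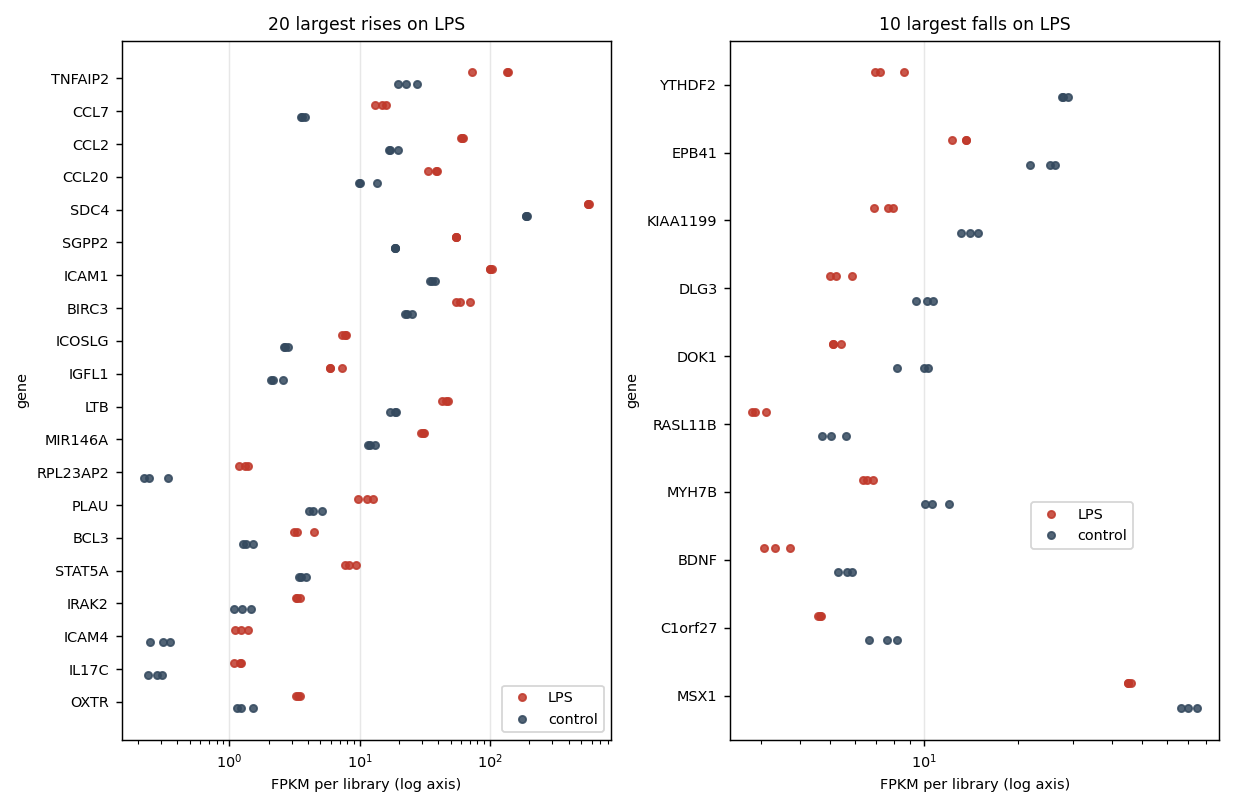
FPKM in each library (log axis) of the 20 largest rises and the 10 largest falls among called genes, with LPS libraries (red) above control libraries (dark) in each row. The genes were picked among those whose LPS and control libraries do not overlap, which holds for 19.8% of all genes tested. The LPS libraries of TNFAIP2 run between 73.3 and 138 FPKM.

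Chemokines were the list with the highest median among those with more than 1 tested member. Of 21 chemokine genes 12 were tested, 6 rose and none fell, and the median change was 0.84, against -0.04 for all genes. CCL2 and CCL7, chemokines for monocytes that neighbour each other on chromosome 17, rose together. CCL2 had 60.6, 62.2 and 59.6 FPKM in LPS libraries and 19.8, 17 and 16.7 FPKM in control libraries (1.75 ± 0.07; limma, adjusted p = 0.00035). CCL7 had 14.9, 15.8 and 13.2 FPKM in LPS libraries and 3.8, 3.54 and 3.59 FPKM in control libraries (1.87 ± 0.09; limma, adjusted p = 0.000506). Both genes were already measurable without LPS, and their groups are far apart. CCL20, which draws CCR6-bearing dendritic cells and lymphocytes to the gut epithelium, had 33.7, 39.2 and 38.5 FPKM in LPS libraries and 13.6, 9.94 and 10 FPKM in control libraries (1.70 ± 0.13; limma, adjusted p = 0.00382).

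The neutrophil chemokines rose less. IL8, the main human neutrophil attractant (CXCL8), had 24.2, 22.8 and 24.6 FPKM in LPS libraries and 12.6, 11.3 and 9.93 FPKM in control libraries (1.05 ± 0.09; limma, adjusted p = 0.00625). CXCL1 had 37.9, 38.1 and 40 FPKM in LPS libraries, against 19.8, 18.5 and 18.1 FPKM in control libraries (1.02 ± 0.06; limma, adjusted p = 0.000766). CXCL3 changed by 0.88 ± 0.12 (limma, adjusted p = 0.027) and its call ended in 5 of the 6 fits. CXCL1, CXCL2 and CXCL3 are close copies of each other, and how reads shared between them were assigned is not given in the sources used here. CXCL2 was not called (0.19 ± 0.09), nor were CXCL5 (0.79 ± 0.13; limma, adjusted p = 0.0671), CXCL6 (0.54 ± 0.16) and the membrane-bound chemokine CX3CL1 (0.68 ± 0.14). The 9 other members were below the filter, among them CCL5 and CXCL10, a chemokine for T cells that is known as an interferon target. CXCL10 had 0.444, 0.45 and 0.261 FPKM in LPS libraries and 0.0563, 0 and 0.0662 FPKM in control libraries. These groups do not overlap, as is so for 19.8% of the genes tested, but CXCL10 was not tested.

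Promoter sequences of 6 large rises are shown because NF-kB, the textbook mediator of the LPS response, binds a short degenerate DNA motif. They were picked for holding that motif among genes whose call held with any library left out, and the promoters of TNFAIP2, CCL7 and ICAM1 hold no match. The sequences are RefSeq promoters of build GRCh38.p14, from 250 bases before to 50 after the gene start, printed 5′ to 3′ on the strand of the gene, with matches to the NF-kB consensus on either strand in capitals. MIR146A is the symbol the file gives to ENSG00000253522, which current annotation names MIR3142HG, the host transcript of that microRNA.
CCL20, chr2:227813592-227813891, plus strand: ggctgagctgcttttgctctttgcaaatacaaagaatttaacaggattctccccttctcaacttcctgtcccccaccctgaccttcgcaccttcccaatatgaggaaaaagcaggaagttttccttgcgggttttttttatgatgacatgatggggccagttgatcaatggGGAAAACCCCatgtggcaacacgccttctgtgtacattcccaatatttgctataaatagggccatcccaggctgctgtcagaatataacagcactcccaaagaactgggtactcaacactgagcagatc
SDC4, chr20:45348375-45348674, minus strand: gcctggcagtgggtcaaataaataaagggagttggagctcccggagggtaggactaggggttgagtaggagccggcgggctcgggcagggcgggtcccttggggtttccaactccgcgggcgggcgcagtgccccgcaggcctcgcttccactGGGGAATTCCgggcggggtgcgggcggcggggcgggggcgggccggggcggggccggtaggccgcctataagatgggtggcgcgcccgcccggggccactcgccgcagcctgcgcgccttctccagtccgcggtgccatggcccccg
SGPP2, chr2:222423738-222424037, plus strand: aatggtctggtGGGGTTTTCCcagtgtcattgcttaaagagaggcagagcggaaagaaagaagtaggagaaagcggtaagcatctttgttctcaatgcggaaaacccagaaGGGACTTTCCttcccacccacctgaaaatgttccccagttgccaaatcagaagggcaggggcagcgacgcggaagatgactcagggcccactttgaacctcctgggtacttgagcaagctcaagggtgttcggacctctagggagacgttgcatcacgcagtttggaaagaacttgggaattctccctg
BIRC3, chr11:102317234-102317533, plus strand: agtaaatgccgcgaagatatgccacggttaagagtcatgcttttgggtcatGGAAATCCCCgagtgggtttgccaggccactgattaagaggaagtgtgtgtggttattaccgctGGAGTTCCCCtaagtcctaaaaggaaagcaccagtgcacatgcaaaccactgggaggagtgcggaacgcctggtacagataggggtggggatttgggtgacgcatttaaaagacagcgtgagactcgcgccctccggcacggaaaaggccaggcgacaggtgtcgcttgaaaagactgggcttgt
LTB, chr6:31582376-31582675, minus strand: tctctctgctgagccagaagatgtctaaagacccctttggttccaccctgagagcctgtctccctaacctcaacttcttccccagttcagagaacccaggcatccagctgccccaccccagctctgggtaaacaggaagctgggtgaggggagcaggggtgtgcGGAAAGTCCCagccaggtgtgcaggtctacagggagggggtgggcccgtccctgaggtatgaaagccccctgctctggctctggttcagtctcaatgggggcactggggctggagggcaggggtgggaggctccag
MIR146A (MIR3142HG), chr5:160468001-160468300, plus strand: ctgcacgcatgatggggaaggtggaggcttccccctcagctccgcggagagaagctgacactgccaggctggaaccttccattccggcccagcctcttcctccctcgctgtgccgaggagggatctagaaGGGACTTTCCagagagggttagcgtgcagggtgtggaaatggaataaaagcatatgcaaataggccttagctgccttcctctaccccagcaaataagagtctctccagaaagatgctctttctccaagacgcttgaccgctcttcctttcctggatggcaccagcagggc

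Of the 20 largest rises 17 had a promoter in the RefSeq table and 7 of these (41.2%) held the 10-base NF-kB consensus, the 6 printed and BCL3. The matches began 79 bases before the start in CCL20, 97 in SDC4, 86 in LTB and 120 in MIR146A, while SGPP2 held matches at 239 and 139 bases and BIRC3 at 199 and 135. Of the 33 genes that rose in every fit with 1 library left out 29 had a promoter and 10 (34.5%) held it. The share over all 27305 promoters of the table was 5.72%. The AP-1 motif TGANTCA was found in 2 of the 17 (11.8%) and 3 of the 29 (10.3%), against 7.76% of all promoters. A match is a description of these letters and does not show binding. The shares over all genes that rose, all that fell and all tested are void as a check, because fewer than 80% of these had a promoter in the table (81 of 108, 14 of 21 and 10761 of 15997). The consensus was in 22 of the 81 that rose (27.2%), 3 of the 14 that fell (21.4%) and 707 of the 10761 tested (6.57%). It was thus present in some promoters of genes that fell. The AP-1 motif was in 4 of the 81 (4.94%), 1 of the 14 (7.14%) and 498 of the 10761 (4.63%). No comparison is drawn from these shares.

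Most tested genes at the receptor end of the pathway were not called. Of 28 genes for LPS recognition and proximal signalling 22 were tested, 2 rose and none fell, with a median of 0.04. Over all genes tested 0.675% were called higher. TLR4 had 5, 4.74 and 5.24 FPKM in LPS libraries and 5.43, 6.32 and 5.81 FPKM in control libraries (-0.21 ± 0.09; limma, adjusted p = 0.39) and was not called. Its groups do not overlap, which was also so for 19.8% of all genes tested. Its partners were hardly measured: LY96 had 0.599, 0.905 and 0 FPKM in LPS libraries and 0.274, 0.205 and 0.263 FPKM in control libraries, and LBP was at or near 0. CD14 had 0.221, 0.225 and 0.196 FPKM in LPS libraries, against 0.668, 0.47 and 0.717 FPKM in control libraries. All 3 were below the filter and not tested here. The CD14 groups do not overlap, as is so for 19.8% of the genes tested. The rises were those of IRAK2, a kinase that sustains signalling from the receptor, and TRAF3, an adaptor that links the receptor to interferon induction. IRAK2 had 3.31, 3.25 and 3.46 FPKM in LPS libraries and 1.46, 1.26 and 1.09 FPKM in control libraries (1.12 ± 0.11; limma, adjusted p = 0.0106), and its call ended in 4 of the 6 fits. TRAF3 changed by 0.34 ± 0.05 (limma, adjusted p = 0.0339), and its call ended in all 6.

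Other parts of this machinery were not called. MYD88 had 8.99, 4.04 and 8.92 FPKM in LPS libraries and 4.04, 8.07 and 9.07 FPKM in control libraries, 2 levels that occur in both groups. IKBKE, a kinase related to the IkB kinases, was at 0.45 ± 0.07 (limma, adjusted p = 0.0543), and NOD2, a sensor of bacterial wall fragments, at 0.64 ± 0.13 (limma, adjusted p = 0.123). TBK1 was at 0.01 ± 0.05 and IRAK1 at 0.09 ± 0.13.

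Among the NF-kB subunits NFKB1, NFKB2 and RELB rose. Of 10 subunit and kinase genes, all tested, 3 rose and none fell, with a median of 0.28. NFKB1, the p50 subunit, had 39.4, 35.7 and 37.5 FPKM in LPS libraries and 20.5, 20.5 and 22 FPKM in control libraries (0.82 ± 0.06; limma, adjusted p = 0.00291). NFKB2, the p52 subunit, had 35.2, 37.8 and 37 FPKM in LPS libraries and 21.6, 19.3 and 19.9 FPKM in control libraries (0.84 ± 0.06; limma, adjusted p = 0.00302). RELB, the partner of p52 in the alternative pathway, had 22, 22.4 and 23.2 FPKM in LPS libraries, against 12.2, 12.2 and 11.5 FPKM in control libraries (0.88 ± 0.06; limma, adjusted p = 0.00166). These 3 genes moved by nearly the same amount. REL was at 0.71 ± 0.12 (limma, adjusted p = 0.0619) with LPS libraries at 4.84 to 5.19 FPKM and control libraries at 2.43 to 3.35 FPKM. RELA, the p65 subunit, had 16.6, 16.5 and 13.6 FPKM in LPS libraries and 9.5, 13.1 and 16.3 FPKM in control libraries, which overlap (0.28 ± 0.19; limma, adjusted p = 0.587). The kinase genes CHUK and MAP3K8 were at 0.01 ± 0.07 and 0.27 ± 0.10, uncalled.

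The feedback inhibitors rose beside the subunits. Of 15 such genes 14 were tested, 5 rose and none fell, with a median of 0.30. TNIP1, a partner of the ubiquitin-editing enzyme A20, had 130, 129 and 124 FPKM in LPS libraries and 73.7, 78.7 and 65.8 FPKM in control libraries (0.81 ± 0.07; limma, adjusted p = 0.00529). TNFAIP3, the gene of A20, had 13.8, 13.7 and 14.6 FPKM in LPS libraries and 8.52, 6.91 and 7.5 FPKM in control libraries (0.84 ± 0.09; limma, adjusted p = 0.0108), and its call ended in 4 of the 6 fits. In both, as in all 129 called genes, the groups do not overlap. BCL3, a nuclear IkB protein (1.13 ± 0.15), NFKBIE, the gene of IkB epsilon (0.92 ± 0.14), and ZC3H12A, the gene of an RNase that destroys cytokine messages (0.77 ± 0.09), also rose, with calls that ended in 6, 5 and 5 of the 6 fits. Their adjusted p in limma was 0.0262, 0.0471 and 0.0172. NFKBIA, the gene of IkB alpha and the textbook early target, narrowly missed the threshold. It had 39.7, 39.7 and 25.3 FPKM in LPS libraries and 14.5, 12.6 and 16.5 FPKM in control libraries (1.21 ± 0.19; limma, adjusted p = 0.0536), with LPS replicate 3 apart from the other LPS libraries. CYLD, a deubiquitinase, was at 0.35 ± 0.07 (limma, adjusted p = 0.118).

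Interleukins and colony-stimulating factors were mostly low. Of 29 genes 20 were tested, 2 rose and none fell, with a median of 0.22. CSF2, the gene of GM-CSF, had 12.7, 15 and 11.8 FPKM in LPS libraries and 7.09, 6.05 and 7.19 FPKM in control libraries (0.91 ± 0.11; limma, adjusted p = 0.0199). IL32 had 33.8, 32.5 and 31.3 FPKM in LPS libraries, against 24.5, 25.5 and 24.2 FPKM in control libraries (0.39 ± 0.05; limma, adjusted p = 0.0271). As in all 129 called genes, neither gene's groups overlap, but both calls ended in all 6 fits with 1 library left out. IL23A, a subunit of interleukin-23, was at 0.55 ± 0.09 (limma, adjusted p = 0.0577), and the receptor gene IL18R1 at 0.77 ± 0.13 (limma, adjusted p = 0.0629). IL6, a classical LPS target in myeloid cells, had 0.132, 0.103 and 0.253 FPKM in LPS libraries and was listed at 0 in all 3 control libraries, below the filter. IL1B was below it as well, with 0.466, 0.108 and 0.398 FPKM in LPS libraries and 0.307, 0.373 and 0.115 FPKM in control libraries. IL17C, an epithelial interleukin that is not on this list, had 1.24, 1.22 and 1.09 FPKM in LPS libraries and 0.238, 0.305 and 0.28 FPKM in control libraries (1.12 ± 0.13; limma, adjusted p = 0.0172), and its call ended in all 6 fits.

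In the TNF superfamily and its relatives, a list that also holds TNFAIP2, 3 of 18 tested genes rose and none fell, with a median of 0.23. LTB, the membrane-bound lymphotoxin beta, had 47.6, 45.6 and 43 FPKM in LPS libraries and 18.9, 18.5 and 16.9 FPKM in control libraries (1.30 ± 0.06; limma, adjusted p = 0.000589). TNFRSF9, a costimulatory receptor also called 4-1BB, had 9.12, 10.3 and 10 FPKM in LPS libraries and 4.68, 3.97 and 4.94 FPKM in control libraries (1.04 ± 0.10; limma, adjusted p = 0.00882), and its call ended in 2 of the 6 fits. The neighbouring cytokine genes of the LTB locus did not pass the test. TNF was at 0.62 ± 0.12 (limma, adjusted p = 0.0972), with 3.2, 3.42 and 3.28 FPKM in LPS libraries and 2.31, 1.71 and 1.94 FPKM in control libraries, and LTA at 0.85 ± 0.15 (limma, adjusted p = 0.0744).

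Survival and adaptor genes gave 3 rises among 19 tested, no fall and a median of 0.11. BIRC3, an inhibitor of apoptosis and ubiquitin ligase of TNF signalling, had 69.6, 58.9 and 55 FPKM in LPS libraries and 22.1, 25.3 and 23.2 FPKM in control libraries (1.35 ± 0.10; limma, adjusted p = 0.00291). BIRC2, its neighbour and close relative, was at 0.50 ± 0.28 and uncalled. TRAF1, a signalling adaptor, rose by 1.02 ± 0.11 (limma, adjusted p = 0.0134) with a call that ended in 5 of the 6 fits. IER3, an abundant early-response gene, had 225, 225 and 223 FPKM in LPS libraries and 186, 193 and 180 FPKM in control libraries, a small change (0.26 ± 0.04; limma, adjusted p = 0.0333) whose call ended in all 6. The survival gene BCL2L1 stood at 2 levels in both groups, with 105, 36.9 and 35.1 FPKM in LPS libraries and 105, 112 and 36.3 FPKM in control libraries, and was not called.

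Genes of the cell surface rose in several classes. Of 22 tested adhesion and surface genes 4 rose and none fell, with a median of 0.06. ICAM1, the ligand of leukocyte integrins, had 99.6, 99 and 103 FPKM in LPS libraries and 34.3, 37.5 and 35.5 FPKM in control libraries (1.48 ± 0.05; limma, adjusted p = 9.23e-05). CD83, an immune surface protein, had 12.4, 14.2 and 13.6 FPKM in LPS libraries and 6.86, 7.2 and 6.52 FPKM in control libraries (0.91 ± 0.08; limma, adjusted p = 0.00529). ITGB8, an integrin subunit that takes part in the activation of latent TGF-beta, rose by 0.56 ± 0.06 (limma, adjusted p = 0.015), with a call that ended in 5 of the 6 fits. SDC4, described above, was the only one of the 3 tested syndecan genes to pass the test. The endothelial adhesion genes VCAM1 and SELE were at or near 0. Outside the list, ICOSLG, the ligand of the T-cell costimulator ICOS, had 7.67, 7.82 and 7.33 FPKM in LPS libraries and 2.82, 2.62 and 2.69 FPKM in control libraries (1.34 ± 0.08; limma, adjusted p = 0.00104). ICAM4, which lies beside ICAM1, had 1.4, 1.11 and 1.23 FPKM in LPS libraries and 0.352, 0.311 and 0.247 FPKM in control libraries (1.12 ± 0.14; limma, adjusted p = 0.0218). Its call ended in all 6 fits, and a part of reads from ICAM1 in its value was not tested.

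**Figure D3:**
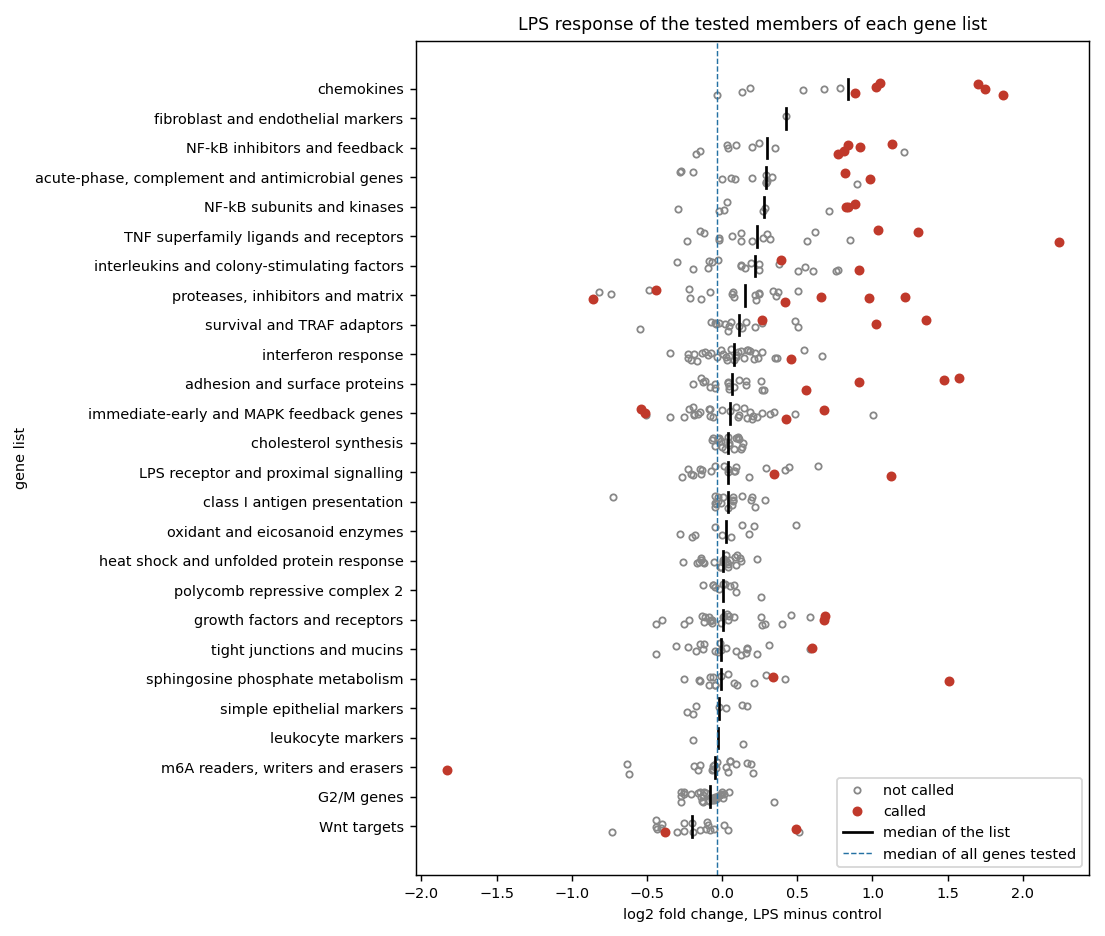
Log2 fold change (LPS minus control) of each tested member of 26 gene lists, with called members filled and the list median as a black bar. Lists are ordered by median, chemokines stand at the top with 0.84 and Wnt targets at the bottom with -0.20, and the dashed line is the median of all genes tested.

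Acute-phase, complement and antimicrobial genes gave 2 rises among 15 tested, no fall and a median of 0.29. SAA2, the gene of an acute-phase apolipoprotein, had 136, 138 and 143 FPKM in LPS libraries and 78.5, 79.1 and 79.1 FPKM in control libraries (0.81 ± 0.04; limma, adjusted p = 0.000418). Its near-identical neighbour SAA1 had 205, 218 and 208 FPKM in LPS libraries and 180, 173 and 162 FPKM in control libraries (0.29 ± 0.05; limma, adjusted p = 0.0614). Reads could be split between the 2 copies, so the difference between them is uncertain. PI3, the gene of the elastase inhibitor elafin, had 13.2, 11.6 and 12.2 FPKM in LPS libraries and 6.46, 6.24 and 5.29 FPKM in control libraries (0.98 ± 0.10; limma, adjusted p = 0.00929), and its call ended in 2 of the 6 fits. LCN2, an iron-withholding lipocalin, was at 0.20 ± 0.07 and uncalled (limma, adjusted p = 0.31).

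In the interferon branch 1 gene passed the test at 4 h. Of 46 genes 35 were tested, 1 rose and none fell, with a median of 0.08. Over all genes tested 0.675% were called higher and the median was -0.04. The member that rose was IFIH1, the RNA sensor MDA5, which had 15.5, 16.9 and 17.3 FPKM in LPS libraries and 11.8, 12.1 and 11.9 FPKM in control libraries (0.46 ± 0.06; limma, adjusted p = 0.0327), with a call that ended in all 6 fits. DDX58, the gene of RIG-I, was at 0.54 ± 0.10 (limma, adjusted p = 0.0841), and IFITM3 at 0.11 ± 0.10. IFNB1 was listed at 0 in both groups. None of 19 class I antigen presentation genes was called by limma, where 0.806% of all genes tested were. B2M, the light chain of these molecules, had 188, 35.6 and 203 FPKM in LPS libraries and 177, 182 and 193 FPKM in control libraries, with LPS replicate 2 far below the rest. Nor was any of 10 tested oxidant and eicosanoid genes called. SOD2, the mitochondrial superoxide dismutase and a common NF-kB target, had 31.6, 13.9 and 29.1 FPKM in LPS libraries and 22.4, 8.12 and 24.4 FPKM in control libraries. Replicate 2 was low in both groups.

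Immediate-early genes moved both ways. Of 34 genes 33 were tested, 2 rose and 2 fell, with a median of 0.06. EGR1, an early growth-response transcription factor, fell to 19.2, 18.2 and 17.7 FPKM in LPS libraries, against 26.6, 26.6 and 25.9 FPKM in control libraries (-0.51 ± 0.05; limma, adjusted p = 0.0106), and CTGF, a target of YAP signalling, fell to 8.68, 9.1 and 9.29 FPKM in LPS libraries, against 13.2, 13.5 and 13.2 FPKM in control libraries (-0.54 ± 0.06; limma, adjusted p = 0.0145). These calls ended in 4 and 6 of the 6 fits. DUSP5, a phosphatase of nuclear ERK, rose by 0.42 ± 0.05 (limma, adjusted p = 0.018) and ATF3, a stress-induced transcription factor, by 0.68 ± 0.10 (limma, adjusted p = 0.037), and both calls ended in all 6. ATF3 had 4.97, 5.05 and 5.29 FPKM in LPS libraries and 2.65, 3.22 and 3.16 FPKM in control libraries. KLF6 had 22, 25.5 and 11.7 FPKM in LPS libraries and 6.37, 6.54 and 17.8 FPKM in control libraries, overlapping groups with a change of 1.00 ± 0.44 that was not called.

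Genes of proteolysis and matrix gave 4 rises and 2 falls among 24 tested, with a median of 0.15. PLAU, the urokinase activator of plasminogen, had 11.3, 12.6 and 9.76 FPKM in LPS libraries and 4.39, 5.16 and 4.06 FPKM in control libraries (1.22 ± 0.12; limma, adjusted p = 0.0106). PLAT, the tissue activator, had 5.33, 5.44 and 6.85 FPKM in LPS libraries and 3.25, 2.55 and 2.44 FPKM in control libraries (0.98 ± 0.14; limma, adjusted p = 0.0365). As in all 129 called genes, the groups of both activators do not overlap, and the calls of PLAU and PLAT ended in 2 and 6 of the 6 fits. The 2 falls were TIMP3, an inhibitor of matrix metalloproteinases (-0.44 ± 0.06; limma, adjusted p = 0.038; ended in 6), and KIAA1199, a protein of hyaluronan degradation, which had 7.91, 7.68 and 6.9 FPKM in LPS libraries and 14, 14.8 and 13.2 FPKM in control libraries (-0.86 ± 0.08; limma, adjusted p = 0.00776).

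Lists of barrier, lipid and growth factor genes held 1 or 2 rises each. CLDN1, a tight junction protein, had 48.1, 47.3 and 46.8 FPKM in LPS libraries and 32.8, 30.4 and 30.2 FPKM in control libraries (0.60 ± 0.05; limma, adjusted p = 0.00529), the only call among 21 tested junction and mucin genes, whose median was -0.01. Of 17 tested genes of sphingosine phosphate metabolism SGPP2 and UGCG rose, and the median was -0.01. UGCG, the enzyme that makes glucosylceramide, rose by 0.34 ± 0.04 (limma, adjusted p = 0.0246), with a call that ended in all 6 fits, and SGPP1, the paralog of SGPP2, was not called. Of 27 tested growth factors and receptors EGFR and JAG1 rose, with a median of 0.0027. EGFR had 54.5, 49.5 and 52.3 FPKM in LPS libraries and 32.5, 29.3 and 35 FPKM in control libraries (0.69 ± 0.07; limma, adjusted p = 0.014; ended in 4), and JAG1, a Notch ligand, had 12.8, 12.8 and 12.2 FPKM in LPS libraries and 7.8, 7.97 and 7.35 FPKM in control libraries (0.68 ± 0.06; limma, adjusted p = 0.00872; ended in 2). PDGFA was at -0.40 ± 0.07 (limma, adjusted p = 0.063).

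Wnt target genes, which are active in SW480 cells because of a truncated APC protein, held 1 rise and 1 fall. Of 22 tested 4 had a positive and 18 a negative change, and the median was -0.20, against 40.8% positive changes and a median of -0.04 over all genes tested. NKD1, a feedback inhibitor of Wnt signalling, fell to 68.7, 66.6 and 62 FPKM in LPS libraries, against 88.7, 87.3 and 80.7 FPKM in control libraries (-0.38 ± 0.06; limma, adjusted p = 0.0471), and DKK1, a secreted Wnt antagonist, rose to 13.6, 13.8 and 13.2 FPKM in LPS libraries, against 9.81, 8.96 and 9.65 FPKM in control libraries (0.49 ± 0.06; limma, adjusted p = 0.0245). Both calls ended in all 6 fits. The stem cell factor ASCL2 was at -0.44 ± 0.07 (limma, adjusted p = 0.0577), AXIN2 at -0.09 ± 0.04 and CCND1 at -0.10 ± 0.03. The Wnt ligand genes WNT5A and WNT10A, outside the list, rose. WNT5A had 81.1, 78.3 and 82.2 FPKM in LPS libraries and 57.6, 58 and 55.8 FPKM in control libraries (0.49 ± 0.04; limma, adjusted p = 0.00529), and WNT10A rose by 0.78 ± 0.08 (limma, adjusted p = 0.0106; ended in 3).

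Further genes rose outside the lists. The transcription factor FOXO1, a target of AKT, had 11.6, 11.2 and 11.1 FPKM in LPS libraries and 5.33, 5.53 and 5.63 FPKM in control libraries (0.98 ± 0.06; limma, adjusted p = 0.00188). SMAD3, the effector of TGF-beta signalling, had 26.1, 22.8 and 25.4 FPKM in LPS libraries and 13.8, 12.6 and 13.7 FPKM in control libraries (0.87 ± 0.07; limma, adjusted p = 0.00529). STAT5A, a cytokine-activated transcription factor, had 9.39, 7.76 and 8.28 FPKM in LPS libraries and 3.56, 3.86 and 3.41 FPKM in control libraries (1.12 ± 0.10; limma, adjusted p = 0.0056). These 3 regulators held their calls with any library left out. So did SQSTM1, the autophagy receptor p62, at 260 to 270 FPKM in LPS libraries and 168 to 183 FPKM in control libraries (0.60 ± 0.04). AKAP12, a scaffold of protein kinase A, rose by 0.64 ± 0.04, the cadherin FAT1 by 0.69 ± 0.04, the collagen prolyl hydroxylase subunit gene P4HA2 by 0.52 ± 0.04 and the mitochondrial cyclophilin gene PPIF by 0.47 ± 0.04, also in every such fit. The largest adjusted p of these last 5 genes in limma was 0.00654.

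The gene listed as MIR146A had 31.2, 30.7 and 29.5 FPKM in LPS libraries and 12, 13.2 and 11.5 FPKM in control libraries (1.29 ± 0.07; limma, adjusted p = 0.000704). It is a long RNA, and these values say nothing of the mature microRNA. IGFL1, an insulin growth factor-like family member, had 5.95, 5.89 and 7.37 FPKM in LPS libraries and 2.16, 2.57 and 2.09 FPKM in control libraries (1.31 ± 0.12; limma, adjusted p = 0.00776). UBD, the gene of the ubiquitin-like modifier FAT10, rose by 1.03 ± 0.11 (limma, adjusted p = 0.0143; ended in 3), the oxytocin receptor gene OXTR by 1.11 ± 0.11 (limma, adjusted p = 0.0106; ended in 3), the protease-activated receptor gene F2RL1 by 0.57 ± 0.06 (limma, adjusted p = 0.0102; ended in 4) and the transcription factor gene HIVEP2 by 0.69 ± 0.07 (limma, adjusted p = 0.013; ended in 5). RPL23AP2, a ribosomal protein pseudogene at 1.18 to 1.4 FPKM in LPS libraries and 0.222 to 0.341 FPKM in control libraries, is uncertain, since reads of its parent gene could be assigned to it, and its call ended in 5 of the 6 fits. PRKCI, the gene of an atypical protein kinase C (0.85 ± 0.08), PPP4R4 (0.86 ± 0.08), PEX10, of peroxisome assembly (0.82 ± 0.07), TSSC4 (0.89 ± 0.09), ARHGAP31 (0.90 ± 0.09), SLC12A7, a potassium chloride cotransporter (0.76 ± 0.08), and GPRC5B (0.94 ± 0.11) also rose. The calls of PRKCI, PPP4R4 and PEX10 held in all 6 fits, and those of TSSC4, ARHGAP31, SLC12A7 and GPRC5B ended in 3, 4, 4 and 5 of them. The largest adjusted p of these 7 in limma was 0.0171.

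The falls were fewer and of mixed function. The gene with the clone-based name AC011933.1 had 0.102, 0.0917 and 0.107 FPKM in LPS libraries and 0.789, 0.948 and 1.19 FPKM in control libraries, a low gene of unknown role whose call did not hold in all 6 fits with 1 library left out. YTHDF2, which binds N6-methyladenosine in RNA and leads the message to decay, fell the most among named genes. It fell to 7.19, 6.96 and 8.61 FPKM in LPS libraries, against 27.8, 28.9 and 27.6 FPKM in control libraries (-1.83 ± 0.09; limma, adjusted p = 0.000513), and the call held in every fit with 1 library left out. Of the 20 readers, writers and erasers of this mark, all tested, YTHDF2 was the only one called, and the list median was -0.05. YTHDF1, its paralog, had 46.8, 45.6 and 47.7 FPKM in LPS libraries and 45.1, 43.4 and 43 FPKM in control libraries, and YTHDF3 had 6.95, 9.51 and 6.4 FPKM in LPS libraries and 9.6, 6.77 and 25.6 FPKM in control libraries. EPB41, the gene of a membrane skeleton protein and the next tested gene to YTHDF2 on chromosome 1, fell next, with 13.6, 12.3 and 13.6 FPKM in LPS libraries and 21.8, 26.3 and 25.3 FPKM in control libraries (-0.87 ± 0.09; limma, adjusted p = 0.0106; ended in 3). GMEB1, the neighbour on the other side of YTHDF2, was at 0.07 ± 0.15 and uncalled.

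MSX1, a homeobox transcription factor, fell to 45.1, 44.9 and 46.2 FPKM in LPS libraries, against 75, 69.8 and 66.7 FPKM in control libraries (-0.63 ± 0.05; limma, adjusted p = 0.00529). PRELID1, a mitochondrial lipid carrier, fell to 47.7, 46.1 and 48.3 FPKM in LPS libraries, against 66.9, 67.8 and 66.9 FPKM in control libraries (-0.50 ± 0.04; limma, adjusted p = 0.00448). Both calls held with any library left out. The scaffold gene DLG3 (-0.86 ± 0.09), the adaptor gene DOK1 (-0.80 ± 0.10), the small GTPase gene RASL11B (-0.71 ± 0.10), the myosin gene MYH7B (-0.68 ± 0.08), the neurotrophin gene BDNF (-0.66 ± 0.10) and C1orf27 (-0.64 ± 0.09) fell as well, with calls that ended in 4, 5, 6, 6, 6 and 5 of the 6 fits. The largest adjusted p among these 6 in limma was 0.0381. BDNF was also no longer called after median scaling or quantile normalization. With the spread estimated over all 12 libraries, DOK1 and C1orf27 were no longer called (limma, adjusted p = 0.136 and 0.2).

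Pairs of neighbouring genes that were both called were few, as were called genes. Of 14218 tested genes placed in RefSeq order, 104 were called higher and 19 lower. Among 14194 pairs of adjacent genes that could be placed in RefSeq order, 3 pairs had both genes called in 1 direction and none in opposite directions. These were CCL2 with CCL7 on chromosome 17, CSF2 with P4HA2 on chromosome 5, and YTHDF2 with EPB41 on chromosome 1. ICAM1 and ICAM4, both called higher, were not counted as an adjacent pair in this order. Whether the number of pairs exceeds that of genes placed at random was not tested. Of the 129 called genes 128 were found in GENCODE 29, and exons of 38 overlap those of another gene there, in 19 of them a protein-coding one, and whether the authors counted by strand is not given in the sources used here. Of the genes named here these include PLAU, KIAA1199, PRELID1, SQSTM1, PEX10, EPB41, MYH7B, UBD, GPRC5B and SAA2, whose reads may not be told from those of the overlapping gene.

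Several lists held no call in limma, where 0.806% of all genes tested were called, and had medians close to that of all genes. These were cholesterol synthesis (20 tested, median 0.04), the heat shock and unfolded protein responses (24 tested, 0.01), G2/M genes (32 tested, -0.08) and Polycomb repressive complex 2 (11 tested, 0.01). In lists of this size no call is near the share over all genes. EZH2, the methyltransferase of that complex, had 27.9, 30.4 and 30 FPKM in LPS libraries and 29.7, 31.6 and 30.8 FPKM in control libraries (-0.06 ± 0.05; limma, adjusted p = 0.688). MKLN1, the gene beside LINC-PINT, was at -0.20 ± 0.20, uncalled. In the G2/M list 28 of 32 genes had a negative change, where 40.8% of all genes tested had a positive one, and over all genes tested 2036 reached an unadjusted p under 0.05.

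The same 4 h of LPS was measured in the libraries labelled PINT shRNA1, which share no library with this comparison. There limma called 23 genes (0.144% of those tested), 16 of them higher, and 11 genes were called higher in both. The 11 were TNFAIP2, CCL2, SDC4, SGPP2, ICAM1, BIRC3, MIR146A, PLAU, TNFAIP3, NFKB2 and TNIP1. The count of 23 was 15 without PINT shRNA1 with LPS replicate 1, 12 without PINT shRNA1 replicate 1 and 36 without PINT shRNA1 replicate 3. Of the 108 genes that rose without hairpin 100 also had a positive change there, where 37.9% of all genes tested did, and of the 21 that fell 18 had a negative one. The response was smaller in 107 of the 108, ATF3 being the exception. The median change of the 108 was 0.768 without hairpin and 0.275 in the libraries labelled PINT shRNA1, and that of the 21 was -0.629 and -0.187. As the genes were chosen for their change without hairpin, part of this difference follows from the choice.

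**Figure D4:**
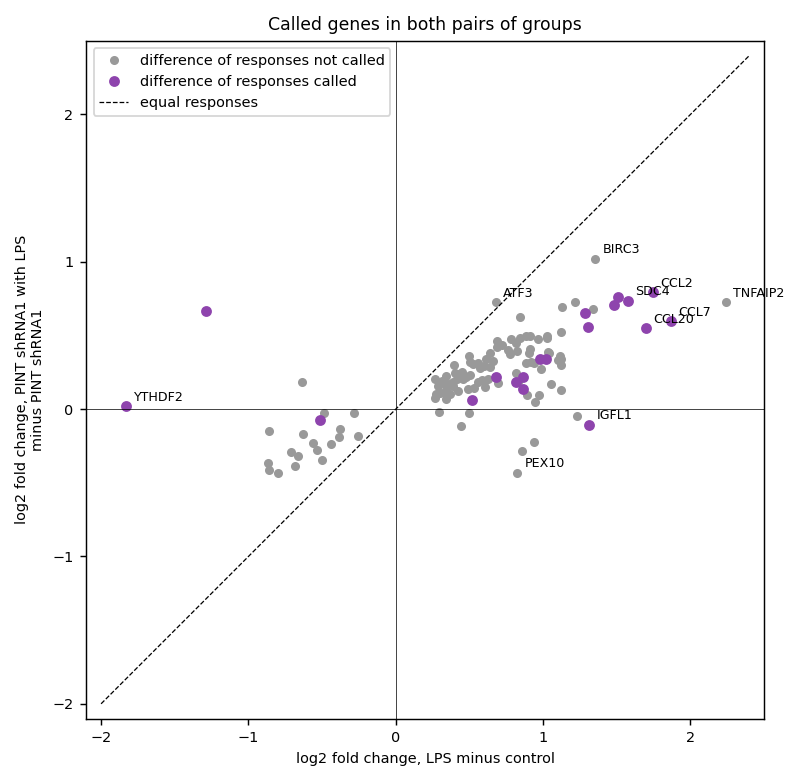
Log2 fold change on LPS of the 129 called genes, without hairpin on the x axis and in the libraries labelled PINT shRNA1 on the y axis, with genes whose difference between the 2 responses was called in purple. All but 1 of the rises lie below the dashed line of equal responses, and YTHDF2 lies near 0 on the y axis.

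The difference of the 2 responses was tested as an interaction over 12 libraries, and limma called 20 genes (0.125%). The hairpin libraries stand apart in depth and in genes above 0, with 30950 to 31961 such genes in PINT shRNA1 with LPS libraries and 30725 to 31159 in PINT shRNA1 libraries, and relative depths of 1.3 to 1.51 and 0.914 to 1.05, and the part of this in the differences was not tested. Of the 20 genes 19 were called without hairpin as well. The LPS and control libraries enter both tests, so part of this overlap and of the direction below follows from sharing them. For 16 that rose without hairpin the change was lower in the libraries labelled PINT shRNA1. The other 3 fell without hairpin. In the libraries labelled PINT shRNA1 EGR1 changed by -0.08 ± 0.04, YTHDF2 by 0.02 ± 0.04 and AC011933.1, a low gene, by 0.66 ± 0.16. SDC4 had 296, 280 and 282 FPKM in PINT shRNA1 with LPS libraries and 174, 168 and 172 FPKM in PINT shRNA1 libraries, so that its response there was 0.74 ± 0.04 and smaller by 0.84 ± 0.04 (limma, adjusted p = 9.1e-06). CCL2 had 33.5, 31.6 and 31 FPKM in PINT shRNA1 with LPS libraries and 19.3, 17.5 and 18 FPKM in PINT shRNA1 libraries, a difference of responses of -0.96 ± 0.09 (limma, adjusted p = 0.0022). Without LPS, CCL2 levels overlapped between control and PINT shRNA1 libraries, while every SDC4 value was somewhat lower in PINT shRNA1 than in control libraries. IGFL1 had 1.14, 1.18 and 1.31 FPKM in PINT shRNA1 with LPS libraries and 1.63, 1.09 and 1.33 FPKM in PINT shRNA1 libraries, with overlapping groups (difference -1.42 ± 0.18; limma, adjusted p = 0.01).

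YTHDF2 had 37.1, 37.1 and 38 FPKM in PINT shRNA1 with LPS libraries and 38.1, 36.5 and 35.8 FPKM in PINT shRNA1 libraries, so the fall seen without hairpin was not seen there (difference 1.85 ± 0.10; limma, adjusted p = 9.1e-06). EPB41 had 19.2, 10.3 and 10.4 FPKM in PINT shRNA1 with LPS libraries and 11.3, 19.4 and 20.5 FPKM in PINT shRNA1 libraries, 2 levels that both groups share. PEX10, PRKCI and ATF3 also had 1 or more hairpin libraries far from the others of their group: PRKCI had 12.4, 12.4 and 12.6 FPKM in PINT shRNA1 with LPS libraries and 12.1, 22.9 and 12.7 FPKM in PINT shRNA1 libraries. EGR1 had 17.8, 17.9 and 17.6 FPKM in PINT shRNA1 with LPS libraries and 18.3, 19 and 19 FPKM in PINT shRNA1 libraries, so its level without LPS already lay near that of the LPS libraries without hairpin (difference 0.43 ± 0.06; limma, adjusted p = 0.017). BIRC3 had 33.3, 30.5 and 31.5 FPKM in PINT shRNA1 with LPS libraries and 14.2, 18.7 and 13.8 FPKM in PINT shRNA1 libraries, and its responses were not called different (difference -0.33 ± 0.16; limma, adjusted p = 0.66). For TNFAIP2 the difference was -1.51 ± 0.29 (limma, adjusted p = 0.12). The hairpin, the lentivirus and other differences between the pairs of groups cannot be told apart.

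**Figure D5:**
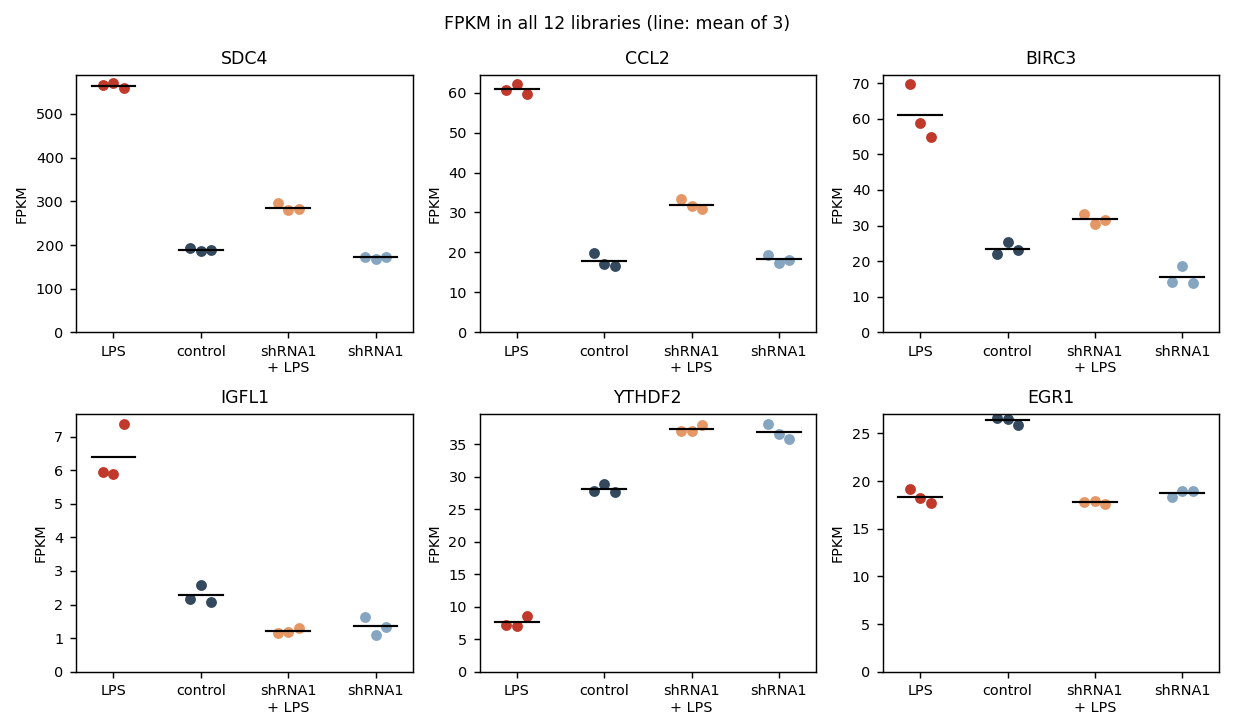
FPKM of 6 genes in all 12 libraries, grouped as LPS, control, PINT shRNA1 with LPS and PINT shRNA1, with a line at each mean. SDC4 and CCL2 are highest in the LPS libraries, IGFL1 stays between 1.09 and 1.63 FPKM in both hairpin groups, and YTHDF2 is low only in the 3 LPS libraries.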

How the data were processed

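RNA-seq was made from SW480 cells in 4 groups, and 15 samples were mapped to 12 columns of gene-level values. The 3 PINT shRNA1 columns each match the titles of a pair of samples and were used as 3 libraries of that group. The authors deposited 1 table of FPKM values per gene. Per the submitters' processing notes, StringTie 1.3.4d, HISAT2 2.1.0 and fastp were used, with the build hg19 (GRCh37). Of its columns, 6 belong to no sample used here and were left out. FPKM keeps no total count, so no interval from read depth can be given.

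Values were taken as log2(FPKM + 0.5) where 3 or more of the 6 libraries reached 0.5 FPKM. Limma 3.58.1 in R 4.3.3, moderated with an intensity trend, was fitted to the 3 LPS and 3 control libraries, two-sided, with Benjamini-Hochberg adjustment over all genes tested and a threshold of 0.05. The response in the PINT shRNA1 libraries was fitted to their 6 libraries on the same genes, and the difference of the responses to all 12. The fits were tested on simulated data. No pair of libraries held identical values.

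The members and lists were chosen with earlier results of these data known. Named genes were the 20 largest rises and 10 largest falls among called genes without overlap of the groups whose higher mean reached 1 FPKM, leaving out clone-based and small RNA names, then all called list members, up to 3 uncalled members per list with the highest mean, TLR4, RELA, EZH2, LINC-PINT and MKLN1, and up to 20 other called genes. A few genes this rule selects are not reported here. Further uncalled genes, those below the filter and single genes of the PINT shRNA1 libraries were named after their values were seen. Gene symbols are those of the deposited table, where 2023 symbols are repeated. Promoters were matched through current symbols, and overlaps read from GENCODE 29 by name, with Python 3.11.15 and pandas 2.3.3. Alternatives were other pseudocounts (0.1 and 1), no filter or 1 FPKM, 3 other scalings, no intensity trend, robust moderation, all 12 libraries in the fit, a replicate block, an adjusted p under 0.01, and each library left out.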

Additional observations from a re-analysis of the deposited data

Results flagged for a closer look

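For 18 of the named genes the change on LPS differed between the libraries labelled PINT shRNA1 and those without hairpin, by limma's test of the difference over 12 libraries with adjustment over all genes tested. The values below are the change in the PINT shRNA1 libraries minus that without hairpin, on the log2 scale. Among chemokine genes the difference was -1.27 for CCL7, -0.956 for CCL2, -1.15 for CCL20 and -0.681 for CXCL1. Among surface and cytokine genes it was -0.841 for SDC4, -0.77 for ICAM1, -0.743 for LTB and -0.46 for JAG1. It was -0.752 for SGPP2, -1.42 for IGFL1, -0.628 for SAA2, -0.454 for P4HA2 and -0.633 for the gene listed as MIR146A. The regulators FOXO1, SMAD3 and PPP4R4 stood at -0.636, -0.65 and -0.73. These 16 genes rose without hairpin, and their change there was the larger. The LPS and control libraries enter both this test and the calls without hairpin. Part of this shared direction therefore follows from the choice of genes. The difference was positive for YTHDF2 (1.85) and EGR1 (0.434), which fell without hairpin and changed by 0.02 and -0.08 in the PINT shRNA1 libraries. Under 17 alternatives the call held in all for CCL7, CCL2, SDC4, SGPP2, ICAM1, LTB, YTHDF2, CXCL1, SAA2, FOXO1 and P4HA2, in 16 for IGFL1, 14 for SMAD3, 10 for EGR1, 7 for CCL20, 6 for MIR146A and 4 each for JAG1 and PPP4R4.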

How the results depend on the processing

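The count of 129 genes (108 higher, 21 lower) stayed within 1.5 times under both other pseudocounts, a filter of 1 FPKM, all 3 scalings and robust moderation, with 127 to 150 calls. It was 486 (277 higher, 209 lower) with all 12 libraries in the fit, where the median gene SD of the PINT shRNA1 with LPS and PINT shRNA1 groups (0.0824 and 0.103) entered beside 0.121 in LPS and in control libraries. It was 79 (67 and 12) with no filter, which tested 35059 genes, and 40 (36 and 4) at an adjusted p under 0.01. Without the intensity trend 91 genes were called, 71 of them higher, and the cause was not tested. Leaving out 1 library gave 47 to 74 calls, 39 to 62 higher and 7 to 12 lower. The replicate block gave 17 calls (16 higher, 1 lower) and 13 for the difference of the responses, against 20 without it. Deviations from the group means of LPS and control libraries of the same number had correlations of -0.0139, 0.0105 and 0.0426 across genes. Such values cannot decide whether these libraries share a batch or culture, and the labels do not say. The 23 calls in the PINT shRNA1 libraries became 12 to 36 with 1 library left out, and the 20 differences 16 to 25. No called gene named here changed direction. Some uncalled ones did, such as MAP3K7 (-0.205 to 0.098) and B2M (-1.162 to 0.085). Median scaling ended the calls of BDNF and TIMP3, quantile normalization those of BDNF and IER3, and a common total that of NKD1. The fit to all 12 libraries ended those of EPB41, DOK1, C1orf27, ATF3 and RPL23AP2 (limma, adjusted p from 0.096 to 0.243). The call held under every alternative for CCL2, CCL7, SDC4, SGPP2, ICAM1, ICOSLG, LTB, MIR146A, TNIP1, CXCL1, SAA2, FAT1, AKAP12, SMAD3 and YTHDF2. The reads behind low genes such as ICAM4, IL17C and RPL23AP2 are unknown.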

Other observations

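A single gene differed between the responses without being called in cells without hairpin. EMP2, a membrane protein of the tetraspan family, had 17.1, 16.8 and 17.7 FPKM in LPS libraries and 17.6, 17.8 and 17.9 FPKM in control libraries (-0.05 ± 0.05). It had 14.3, 14.1 and 13.5 FPKM in PINT shRNA1 with LPS libraries and 6.87, 6.55 and 5.97 FPKM in PINT shRNA1 libraries, a rise of 1.06 ± 0.07 (limma, adjusted p = 0.00395) and a difference of responses of 1.10 ± 0.08 (limma, adjusted p = 0.00011). The lowest values are those of the PINT shRNA1 libraries without LPS.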
